A study of Mus musculus with 9 samples.

Results

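This report describes 37 genes of sterol and fatty acid synthesis and of their control, among 55536 genes counted in B cells of the mouse spleen. They were chosen by name: 18 enzymes of the cholesterol pathway, 11 enzymes that make, lengthen or desaturate fatty acids, 6 genes that sense or carry sterols, and 2 pumps that export them. All 37 were found in the count table and also in the table of log2 values that holds 12849 genes, so all passed the filter on low counts. RNA was sequenced in 9 libraries of spleen cells that the labels place before the germinal centre (GC), where activated B cells proliferate and are selected for antibody affinity. The genotype is WT in 4 libraries and p52Ki in 5, whose titles read p52ki/ki, a homozygous knock-in at p52, an NF-kB subunit made from Nfkb2. No age, immunisation, sorting scheme or construct is given in the sources used here, and whether each library came from its own mouse is not stated. P-values therefore rest on the spread between libraries, part of which may be technical.

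Cholesterol is built from acetyl-CoA through mevalonate and isoprenoid units, which are joined to squalene, closed to lanosterol and trimmed to cholesterol. The genes of this route are driven together by SREBP2, the product of Srebf2, whereas SREBP1, from Srebf1, drives mainly the fatty acid genes. Both factors wait in the endoplasmic reticulum membrane with the escort SCAP, are held there by INSIG proteins when sterols are plentiful, and are carried to the Golgi and cut free when sterols run low. The nuclear receptor LXR works in the other direction: oxidised sterols activate it, and it switches on the export pumps Abca1 and Abcg1, the ubiquitin ligase Mylip and, in many tissues, Srebf1 and Scd1. Dividing lymphocytes make membrane and so raise sterol and fatty acid synthesis.

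The promoters of these genes were searched for the motifs of the factors that act on them. SREBP binds sterol regulatory elements (SRE) and works with the factor NF-Y, which binds CCAAT. RefSeq promoters (GRCm38.p6, from 250 bases before to 50 after each start) were found for 29 of the 37 genes. The letters CCAAT, on either strand, stood in a promoter of 14 of the 15 sterol enzyme genes with a promoter, against 41.1% of 27025 genes. They stood in 4 of the 5 such enzyme genes called lower in p52Ki and in 10 of the 10 not called. Of the 5 sterol control genes with a promoter 4 held them, and of the 8 fatty acid enzyme genes 5 did. The SRE letters TCACNCCAC, on either strand, were found in 1 member, Hmgcs1, against 1.44% of all genes. For p52 and ETS1, the pair named in the series title, the kB motif stood in 3 of the 15 sterol enzyme genes (9.55% of all genes), none of which was called. The ETS letters CCGGAAG stood in 2 of 15 (9.93%), Dhcr7, which was called, and Hmgcs1, which was not. The kB motif also stood in 2 of the 5 sterol control genes, Insig2 and Srebf1. It stood in 1 of the 8 fatty acid enzyme genes, Fads2. The ETS letters stood in 1 of those 5, Insig2, and in 1 of those 8, Acss2. None of these control and fatty acid genes was called. Of the 7 sterol enzymes called, 5 could be searched, since no promoter was found for Fdft1 and Sqle. A match describes letters in this window, and binding was not measured. The bases before the start are shown for Hmgcs1 (chr13:119690101-119690350, plus strand), which holds both kinds of match, and for Sc5d (chr9:42264301-42264550, minus strand), a gene that fell and has a single CCAAT match. They were chosen after the values were seen, from genes whose upstream bases touch no annotated exon. Capitals mark the SRE letters (TCACCCCAC) and CCAAT, which reads ATTGG on the other strand.
Hmgcs1: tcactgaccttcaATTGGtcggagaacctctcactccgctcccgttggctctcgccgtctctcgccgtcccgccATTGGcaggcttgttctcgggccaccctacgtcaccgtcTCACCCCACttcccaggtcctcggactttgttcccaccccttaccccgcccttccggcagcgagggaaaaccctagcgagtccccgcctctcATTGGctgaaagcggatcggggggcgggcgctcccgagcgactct
Sc5d: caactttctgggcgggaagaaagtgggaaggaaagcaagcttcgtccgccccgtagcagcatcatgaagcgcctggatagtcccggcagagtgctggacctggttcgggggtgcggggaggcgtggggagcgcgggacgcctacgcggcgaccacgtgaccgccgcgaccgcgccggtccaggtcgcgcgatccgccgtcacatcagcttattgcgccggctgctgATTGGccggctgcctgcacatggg
The SRE match of Hmgcs1 starts 137 bases before the start site, and the 3 CCAAT matches in the bases shown start 237, 176 and 45 bases before it. Hmgcs1 has a further CCAAT match after the start site. The match of Sc5d lies 24 bases before the start.

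The 9 libraries held 7368604 to 7937579 counts in WT and 4492160 to 6647650 in p52Ki, so levels in p52Ki rest on fewer counts. WT libraries nevertheless had counts in fewer genes, 14033 to 14793 against 15504 to 16634. B cell markers were abundant, with Cd79b, a subunit of the B cell receptor, at 2271 ± 237 CPM (the unit of level used here, read counts scaled to 1 common library total after TMM scaling) in WT and 2882 ± 357 in p52Ki (SD, n = 4 and 5 throughout). All 6 B cell markers had a log2 fold change above 0, of which 4 stood at an unadjusted p under 0.05 and 1, Cd79a, was called higher (1569 ± 315 CPM in WT and 2829 ± 419 CPM in p52Ki, 0.85 ± 0.16, edgeR adjusted p = 0.00906). Of the 8 T cell markers Lck was abundant and averaged 213 ± 26.9 CPM over WT and 128 ± 51.4 CPM over p52Ki libraries, every p52Ki library lying below WT, and it was not called (-0.74 ± 0.26, edgeR adjusted p = 0.114). The other 7 T cell markers summed to at most 16.5 CPM in a library, and the 5 neutrophil markers had 0 counts in all. Among markers fixed for other cell types, Irf4 (plasma cells) and Pecam1 (endothelium) were called higher in p52Ki and Jchain (plasma cells) and Flt3 (dendritic cells) lower. The plasma cell marker Sdc1, not called, averaged 1.21 CPM in WT and 22.0 CPM in p52Ki. Pecam1 was the 1 tested of 7 stromal and endothelial markers, and the others averaged at most 0.796 CPM in a genotype. Flt3 was the 1 tested of 6 dendritic cell markers, and the others averaged at most 2.71 CPM. The part of all these markers in the results was not tested. Differences were tested with edgeR over 12849 genes, and a gene was called where its adjusted p was under 0.05. By that rule 8.53% of all genes were called, 4.04% lower and 4.49% higher in p52Ki.

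Of the 18 cholesterol enzymes 7 fell in p52Ki, at steps from the entry of the route to its end, while among the fatty acid enzymes the elongase Elovl6 fell and the desaturase Scd1 rose. Of the 37 genes 9 were called (8.53% of all genes), 8 lower (4.04%) and 1 higher (4.49%). All 18 sterol enzymes had a log2 fold change below 0, as had 6198 of the 12849 genes tested. Of the 18, 7 were called lower and 0 higher, with a median of -0.81 against 0.03 over all genes tested. In alternative fits Tm7sf2 lay above 0 in 5 of 18 and Fdps in 1 of 17. Of the 11 fatty acid enzymes 1 was called lower and 1 higher, with a median of -0.05, and of the 8 control and export genes none was called by edgeR. At an unadjusted p under 0.05 stood 3 of those 8, Insig2, Abca1 and Abcg1, and DESeq2 called 2, both pumps. In bulk RNA, fewer cells that express a gene and less RNA of it per cell cannot be told apart.

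**Figure D1:**
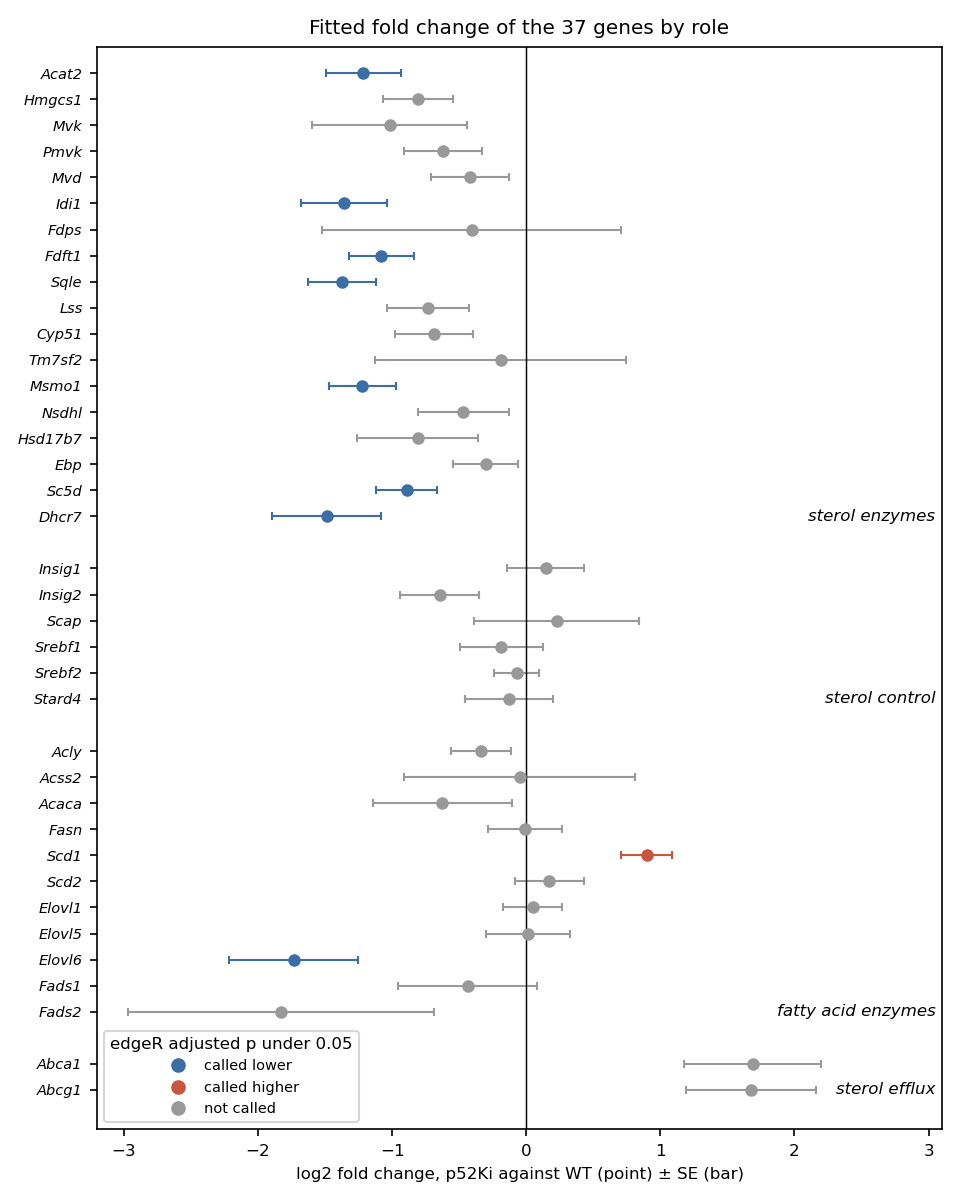
Fitted log2 fold change of p52Ki against WT for each of the 37 genes, grouped by role and in pathway order within the sterol enzymes, with bars for the standard error. All 18 sterol enzymes lie to the left of 0, Scd1 is the called gene to the right, and Abca1 and Abcg1 lie farthest right without being called.

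Acat2, the cytosolic thiolase that joins acetyl-CoA units at the entry to the route (chromosome 17, 12942890 to 12960747), had levels of 205, 105, 118 and 211 CPM in the WT libraries and 60.4, 63.7, 62.8, 108 and 48.9 CPM in the p52Ki libraries, both in order of replicate number, as in all such series here. Positions are on GRCm38 with the GENCODE M21 annotation. WT replicates 1 and 4 were high, and p52Ki replicate 4 alone reached the WT range. The fall was 2.32-fold (log2 fold change -1.21 ± 0.28, SE, edgeR adjusted p = 0.0209). Idi1, which turns isopentenyl diphosphate into its reactive isomer (chromosome 13, 8885501 to 8892451), had 128, 90.3, 89.2 and 116 CPM in WT and 19.3, 40.0, 57.5, 61.6 and 27.8 CPM in p52Ki. No p52Ki library reached a WT library, and p52Ki replicates 1 and 5 were lowest. It fell 2.57-fold (-1.36 ± 0.32, edgeR adjusted p = 0.0229).

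The 5 other enzymes of the mevalonate and isoprenoid steps had log2 fold changes below 0 and were not called. Hmgcs1, the synthase that makes the precursor of mevalonate, was at 129, 142, 78.1 and 195 CPM in WT and 50.7, 86.9, 79.0, 97.4 and 74.7 CPM in p52Ki. WT replicate 3 lay within the p52Ki range. The log2 fold change was -0.81 ± 0.26 (edgeR adjusted p = 0.0835), and without WT replicate 3 it was called (adjusted p = 0.0368, with a range of 0.0368 to 0.243 over 18 alternative fits). Pmvk, the second kinase of the route, was at 106, 42.1, 81.8 and 92.9 CPM in WT and 45.4, 60.0, 53.5, 69.6 and 33.7 CPM in p52Ki, with WT replicate 2 below 4 of the 5 p52Ki libraries (-0.62 ± 0.29, edgeR adjusted p = 0.243). Mvk, the kinase before it, Mvd, the decarboxylase after it, and Fdps, which makes farnesyl diphosphate, had log2 fold changes of -1.02 ± 0.58, -0.42 ± 0.29 and -0.41 ± 1.11. Fdps was counted least of the sterol enzymes, with 263 counts over 9 libraries. It had 0 counts in p52Ki replicate 1, where 3 counts would be 0.436 CPM, and it shares 26.7% of its exon bases with Gm43738 on the same strand, where reads cannot be assigned to 1 gene.

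The 3 steps from farnesyl diphosphate to lanosterol held 2 called genes. Sqle, squalene epoxidase, which adds the first oxygen and is a point of control (chromosome 15, 59315077 to 59331192), was at 145, 129, 107 and 115 CPM in WT and 43.0, 25.6, 45.5, 65.7 and 60.2 CPM in p52Ki. The lowest WT library stood clear of the highest p52Ki library. Sqle fell 2.59-fold (-1.37 ± 0.25, edgeR adjusted p = 0.00868). Fdft1, squalene synthase, which commits isoprenoid units to sterols (chromosome 14, 63145150 to 63179578), was at 105, 62.8, 91.1 and 68.2 CPM in WT and 35.1, 50.4, 32.6, 45.5 and 29.3 CPM in p52Ki. The genotypes did not overlap, and the fall was 2.11-fold (-1.08 ± 0.24, edgeR adjusted p = 0.0190). It shares 18.3% of its exon bases with Ctsb on the other strand, and the library kit does not mark strand. Other members share exon bases with another gene too. Among them are Scap (13.2%), Hmgcs1 (12.1%), Idi1 (9.22%) and Tm7sf2 (12.1%, with Vps51 on the same strand). Lss, which closes the ring to lanosterol, was at 66.5, 28.1, 49.9 and 60.7 CPM in WT and 20.0, 33.3, 38.4, 36.8 and 25.6 CPM in p52Ki. WT replicate 2 lay inside the p52Ki range, and the gene was not called (-0.73 ± 0.30, edgeR adjusted p = 0.180).

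Of the 8 enzymes that trim lanosterol to cholesterol, 3 fell. Msmo1, the methyl sterol oxidase (chromosome 8, 64718139 to 64733792), was at 97.9, 69.9, 141 and 113 CPM in WT and 32.7, 45.5, 61.9, 48.1 and 37.8 CPM in p52Ki. Every p52Ki library lay below every WT library, a 2.33-fold fall (-1.22 ± 0.25, edgeR adjusted p = 0.0135). Sc5d, the desaturase that makes 7-dehydrocholesterol (chromosome 9, 42251595 to 42264256), was at 91.9, 56.9, 59.9 and 95.6 CPM in WT and 33.0, 44.6, 44.6, 42.3 and 40.6 CPM in p52Ki. The p52Ki libraries lay close together, with an SD of 4.81 CPM against 20.5 CPM in WT, and none reached a WT library. Sc5d fell 1.85-fold (-0.89 ± 0.23, edgeR adjusted p = 0.0317).

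Dhcr7, the reductase that turns 7-dehydrocholesterol into cholesterol (chromosome 7, 143823145 to 143848410), was at 57.8, 31.0, 63.3 and 27.1 CPM in WT and 8.71, 19.9, 23.4, 19.3 and 8.26 CPM in p52Ki. WT replicates 2 and 4 were near the top p52Ki library, but the genotypes did not overlap. Its fall of 2.81-fold was the largest fitted among the sterol enzymes (-1.49 ± 0.41, edgeR adjusted p = 0.0434). Cyp51, the lanosterol demethylase, was at 141, 115, 192 and 187 CPM in WT and 83.8, 71.2, 101, 174 and 61.9 CPM in p52Ki. p52Ki replicate 4 alone lay within the WT range. Cyp51 was not called (-0.69 ± 0.29, edgeR adjusted p = 0.188), and it was without that library (adjusted p = 0.0231, with a range of 0.0231 to 0.373 over 18 alternative fits). Hsd17b7, a ketosteroid reductase of the route, was at 14.7, 21.03, 37.4 and 26.0 CPM in WT and 28.5, 14.3, 8.88, 10.9 and 8.04 CPM in p52Ki, where p52Ki replicate 1 lay above 3 WT libraries (-0.81 ± 0.45, edgeR adjusted p = 0.337). Nsdhl and Ebp, a dehydrogenase and an isomerase of the same stretch, had log2 fold changes of -0.47 ± 0.34 and -0.30 ± 0.24. Tm7sf2, a sterol reductase, was uneven, with 0 counts in WT replicate 1 and 164 in WT replicate 3 (-0.19 ± 0.94).

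The calls of Sqle and Msmo1 were kept when any 1 library was left out. The call of Acat2 depended on WT replicates 1 and 4 and on p52Ki replicates 1, 3 and 5, being lost when any of them was left out (adjusted p up to 0.0684). That of Idi1 depended in the same way on WT replicates 1 and 4 and p52Ki replicates 2 and 5 (up to 0.0620), and that of Fdft1 on WT replicates 1 and 3 and p52Ki replicate 3 (up to 0.0591). Sc5d kept its call only in the fits without WT replicate 2 or 3 (otherwise up to 0.107), and Dhcr7 only in the fit without WT replicate 4 (otherwise up to 0.130). Together, 2 sterol enzymes were called without WT replicate 1, 3 without p52Ki replicate 3 or 5, 4 without WT replicate 4 or p52Ki replicate 1 or 2, and 6 without each of the others. The median of the 18 ran from -0.91 to -0.68 over those fits.

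**Figure D2:**
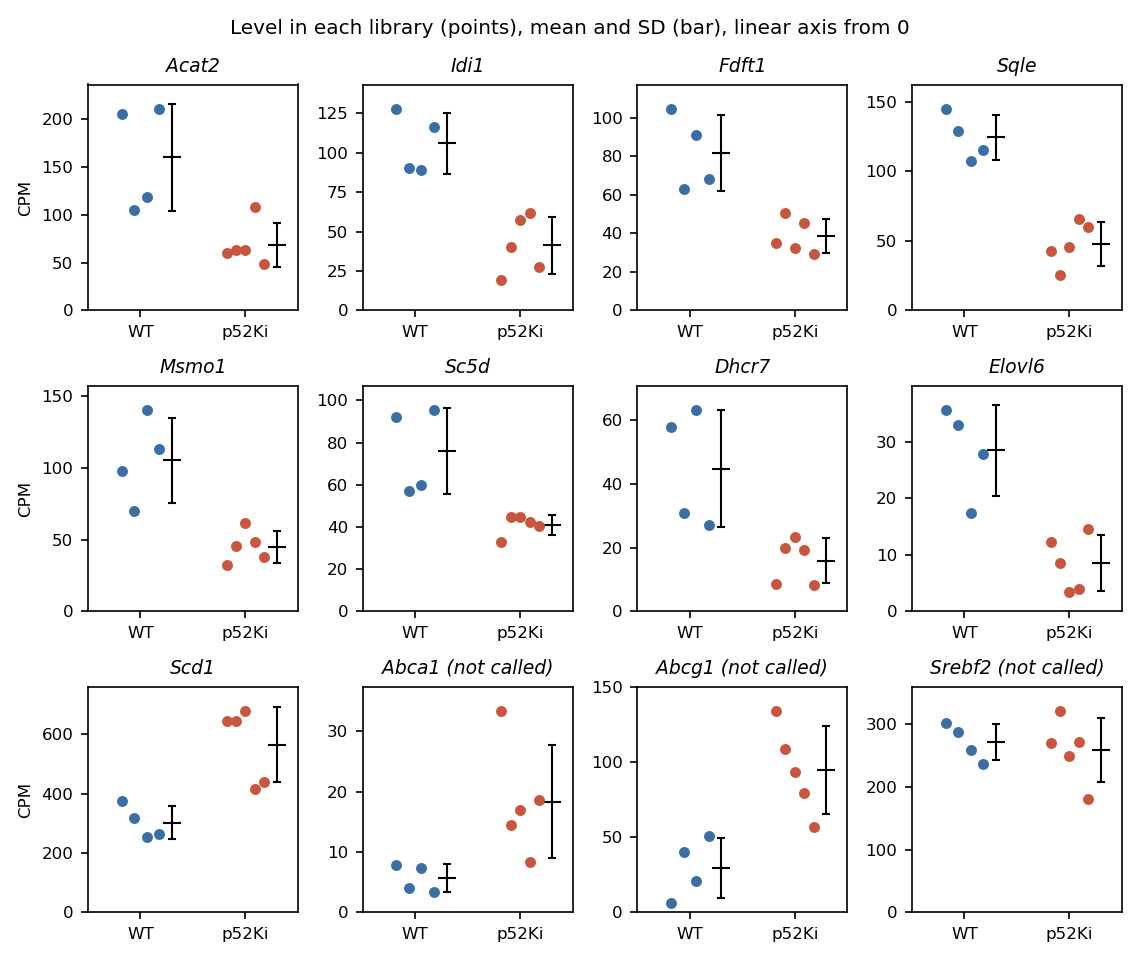
CPM of 12 genes in each library (points, WT left and p52Ki right, replicates in order from left to right), with the mean and SD as a bar and each axis starting at 0. The genotypes do not overlap for Idi1, Fdft1, Sqle, Msmo1, Sc5d, Dhcr7 and Elovl6, where p52Ki is lower, nor for Scd1, Abca1 and Abcg1, where it is higher.

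The libraries of the genotypes stood apart for 10 members. Of the 37 genes, 7 had every p52Ki library below every WT library, 6 sterol enzymes and Elovl6, against 6.53% of all genes tested. Scd1, Abca1 and Abcg1 had every p52Ki library above, 3 genes against 7.30% of all genes tested. For 17 of the 18 sterol enzymes the highest of the 9 libraries was WT, in replicate 1 for 8 genes, replicate 3 for 6 and replicate 4 for 3. The lowest was p52Ki replicate 1 for 8 genes and p52Ki replicate 5 for 7. WT replicate 2 was the lowest WT library, with 14 of 18 sterol enzymes below the WT mean on the log2 scale.

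Genes of the cell cycle were also lower in p52Ki. Of 20 cell cycle genes, chosen for DNA replication and mitosis, 17 were called lower (4.04% of all genes) and 0 higher (4.49%), with a median log2 fold change of -1.23. The count dropped to between 10 and 12 on leaving out WT replicate 1, 3 or 4, or p52Ki replicate 3 or 5. Their summed level was 11286, 9360.3, 9474 and 9810.0 CPM in the WT libraries and 2829.7, 5094, 3769, 7006 and 3204 CPM in the p52Ki libraries. The 18 sterol enzymes summed to 1531, 1047, 1321 and 1479.6 CPM in WT and to 583, 759, 757, 905 and 583 CPM in p52Ki. In both sums WT replicate 1 was highest, p52Ki replicate 4 was the highest p52Ki library, and p52Ki replicates 1 and 5 were the lowest. The part of cell division in the lower sterol genes was not tested. Total counts were also lower in p52Ki, and their part was not tested either.

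**Figure D3:**
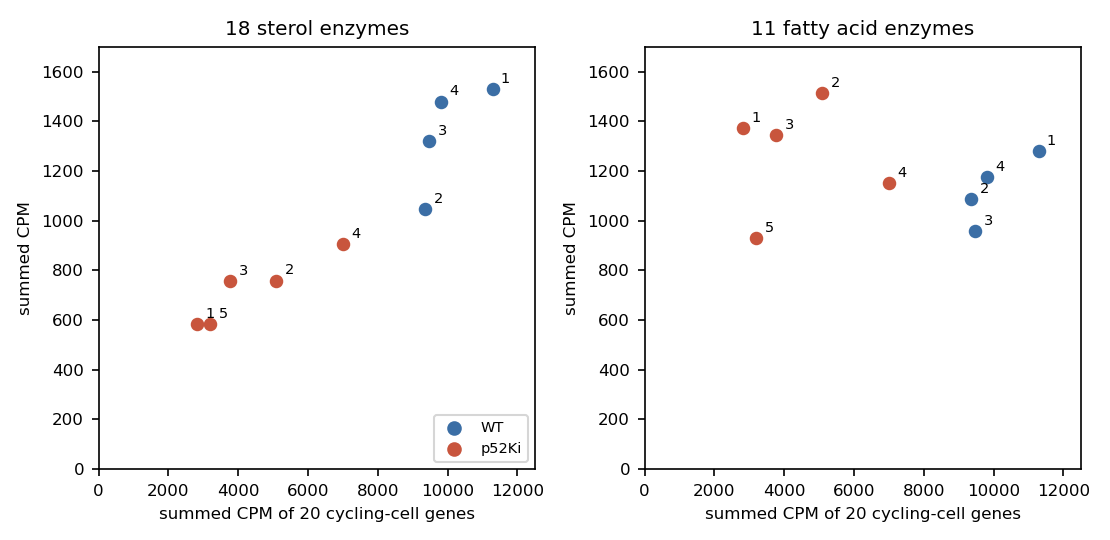
Summed CPM of the 18 sterol enzymes (left) and of the 11 fatty acid enzymes (right) against the summed CPM of 20 cell cycle genes, with 1 point per library labelled by replicate number. Sterol sums are lower in every p52Ki library, which also have the lower cell cycle sums, while fatty acid sums of the genotypes overlap.

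The genes that govern the sterol route were not called, and none of the 6 had genotypes apart. Srebf2 (chromosome 15, 82147181 to 82205379) was at 302, 288, 259 and 237 CPM in WT and 269, 321, 249.8, 271 and 181 CPM in p52Ki. p52Ki replicate 2 was above and replicate 5 below every WT library, and the means were 272 ± 29.1 and 258 ± 50.9 CPM (-0.07 ± 0.17, edgeR adjusted p = 0.873). Srebf1 (chromosome 11, 60199089 to 60222581) was at 139, 61.6, 64.0 and 103 CPM in WT and 78.7, 107, 77.5, 99.3 and 41.9 CPM in p52Ki, with wide overlap (-0.18 ± 0.31, edgeR adjusted p = 0.809). These are transcript levels, and the cut, nuclear forms of the proteins were not measured.

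Scap was at 41.3, 56.3, 62.7 and 2.26 CPM in WT and 46.6, 52.4, 57.2, 53.3 and 28.0 CPM in p52Ki. WT replicate 4, with 17 counts, stood far below the others, and the log2 fold change was 0.23 ± 0.61, or -0.15 without that library. Insig1, itself a sterol-repressed SREBP target, was at 51.98, 33.1, 30.1 and 34.1 CPM in WT and 42.2, 44.4, 57.0, 38.5 and 24.1 CPM in p52Ki (0.15 ± 0.29, edgeR adjusted p = 0.847). The p52Ki libraries spanned the whole WT range. Insig2 was at 26.4, 40.5, 50.8 and 52.8 CPM in WT and 23.2, 34.4, 34.6, 19.6 and 24.6 CPM in p52Ki, where 3 p52Ki libraries lay below WT (-0.64 ± 0.29, edgeR adjusted p = 0.232). Stard4, a carrier of cholesterol between membranes, was at 36.7 ± 16.8 and 33.6 ± 5.29 CPM (-0.13 ± 0.33).

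Abca1 and Abcg1, the export pumps, were higher in every p52Ki library but missed the threshold. Abca1 (chromosome 4, 53030787 to 53159895) was at 7.88, 4.01, 7.39 and 3.45 CPM in WT and 33.4, 14.5, 17.0, 8.27 and 18.7 CPM in p52Ki, where replicate 1 was highest. The ratio was 3.22-fold (1.69 ± 0.51, edgeR adjusted p = 0.0641), and it was called without p52Ki replicate 4 (adjusted p = 0.0382) and by DESeq2 (adjusted p = 0.0115), with a range of 0.0115 to 0.189 over 18 alternative fits. Abcg1 (chromosome 17, 31057675 to 31117988) was at 6.30, 40.4, 20.8 and 50.8 CPM in WT and 134, 108, 93.3, 79.5 and 56.7 CPM in p52Ki, with WT replicate 4 just below the lowest p52Ki library. Its ratio was 3.19-fold (1.68 ± 0.49, edgeR adjusted p = 0.0559). Of 18 alternative fits 6 called it, among them DESeq2 (adjusted p = 0.00295) and the fit without WT replicate 4 (adjusted p = 0.0439), with a range of 0.00295 to 0.133.

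Macrophages also make these pumps. Of 8 macrophage and monocyte markers 7 were tested and 0 were called by edgeR, with 1, Lyz2, at an unadjusted p under 0.05. They summed to 51.2 to 171 CPM in WT and 109.97 to 231 CPM in p52Ki. In WT the sum had the same order of libraries as Abcg1 and the reverse order of Abca1. In p52Ki replicate 1 was highest, as for both pumps. p52Ki replicate 5 came next in the sum and in Abca1 but was lowest in Abcg1. C1qa stood at 11.2 and 11.5 CPM in the 2 genotypes, none of the 8 was at 0 in all libraries, and Lyz2 alone did not overlap (7.52 ± 4.17 and 28.5 ± 21.5 CPM, 1.92 ± 0.59, edgeR adjusted p = 0.0685). Their part in the pumps' levels was not tested.

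Among other genes of sterol sensing and transport the share called was near the 8.53% of all genes. Of 13 genes of SREBP processing and sterol sensing 12 were tested, and 1 was called, higher, with a median log2 fold change of 0.11. Mylip, the LXR target that marks the LDL receptor for destruction, was at 13.3, 49.7, 35.5 and 20.97 CPM in WT and 108, 65.8, 140.5, 70.6 and 81.9 CPM in p52Ki. The genotypes did not overlap, and it rose 3.13-fold (1.64 ± 0.38, edgeR adjusted p = 0.0217), a call lost without WT replicate 4 or p52Ki replicate 1 or 3 (adjusted p up to 0.0615). Nr1h2, which encodes LXR beta, averaged 97.6 ± 24.7 CPM in WT and 119 ± 9.66 CPM in p52Ki (0.29 ± 0.19, edgeR adjusted p = 0.417), and Nr1h3, for LXR alpha, was near the limit of counting at 1.22 ± 1.44 and 1.88 ± 1.85 CPM. Of 12 genes of sterol transport and esterification 11 were tested and 1 was called, higher, with a median of 0.01. Npc2, which moves cholesterol out of the lysosome, was at 53.7, 41.8, 67.8 and 67.3 CPM in WT and 148, 155, 135, 90.6 and 168 CPM in p52Ki. It rose 2.41-fold without overlap (1.27 ± 0.22, edgeR adjusted p = 0.00687). None of the 14 genes that use isoprenoid units for protein anchors, ubiquinone or dolichol was called by edgeR or by DESeq2. 1 of them, Ggps1, stood at an unadjusted p under 0.05, and their median log2 fold change was 0.12.

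Of the 11 fatty acid enzymes 9 were not called, Scd1 rose and Elovl6 fell. Scd1, the stearoyl-CoA desaturase that makes oleate and palmitoleate (chromosome 19, 44394455 to 44407879), was at 375, 319, 254 and 263 CPM in WT and 644, 645, 679, 415 and 439 CPM in p52Ki. p52Ki replicates 1 to 3 were high, and replicates 4 and 5 still lay above every WT library. Scd1 rose 1.86-fold (0.90 ± 0.19, edgeR adjusted p = 0.0154), and the call was kept without any 1 library. Its paralog Scd2, which does the same reaction and is abundant in brain, was at 84.9, 54.0, 59.9 and 86.9 CPM in WT and 76.1, 117, 86.7, 73.1 and 49.1 CPM in p52Ki. The genotypes overlapped (0.17 ± 0.26, edgeR adjusted p = 0.785). The paralogs are similar in sequence, and how the authors' counting treated reads that fit both is not given in the sources used here.

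Elovl6, which lengthens palmitate to stearate, the substrate of Scd1 (chromosome 3, 129532355 to 129638495), went the other way. Its level was 35.7, 32.9, 17.5 and 27.9 CPM in WT and 12.3, 8.64, 3.39, 3.98 and 14.6 CPM in p52Ki. No p52Ki library reached the lowest WT library, replicate 3. Elovl6 fell 3.32-fold (-1.73 ± 0.48, edgeR adjusted p = 0.0458). The call rests close to the threshold: it was kept without p52Ki replicate 5 and lost without any other library, at adjusted p up to 0.107. Elovl1 and Elovl5, elongases of saturated very long and of polyunsaturated chains, had log2 fold changes of 0.05 ± 0.22 and 0.01 ± 0.31. Elovl1 overlaps 53 exon bases of Cdc20, a mitotic gene on the other strand.

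The central enzymes of chain synthesis were not called. Fasn, fatty acid synthase, was at 55.8, 101, 50.1 and 90.9 CPM in WT and 86.2, 88.5, 48.8, 88.4 and 57.4 CPM in p52Ki. The genotypes overlapped over most of their range (-0.01 ± 0.27, edgeR adjusted p = 0.989). Acly, which splits citrate to supply acetyl-CoA to both branches, was at 446 ± 97.0 and 353 ± 95.7 CPM (-0.34 ± 0.23, edgeR adjusted p = 0.445). Acaca, the carboxylase that makes malonyl-CoA, and Acss2, which activates acetate, had log2 fold changes of -0.63 ± 0.52 and -0.05 ± 0.86. Acss2 was uneven within WT, with 3 counts in replicate 1 and 182 in replicate 3.

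The desaturases of polyunsaturated chains, Fads1 and Fads2, had log2 fold changes of -0.44 ± 0.52 and -1.83 ± 1.14. Fads2 was at 9.58, 12.7, 16.8 and 6.64 CPM in WT and 1.597, 0, 7.59, 6.74 and 0 CPM in p52Ki, with 0 counts in p52Ki replicates 2 and 5, where 3 counts would be 0.529 and 0.652 CPM. p52Ki replicates 3 and 4 lay within the WT range, and the gene was not called (edgeR adjusted p = 0.404). Of 24 further genes of fatty acid synthesis 16 were tested and none was called by edgeR, and 3 of the 24 had 0 counts in all libraries. At an unadjusted p under 0.05 stood 2, both lower and named here after their values were seen: Hsd17b12, the reductase of the elongation cycle (-0.63 ± 0.20, edgeR adjusted p = 0.0714), and Mid1ip1, an activator of acetyl-CoA carboxylase (-0.65 ± 0.25, edgeR adjusted p = 0.136). DESeq2 called 1 of the 16.

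**Figure D4:**
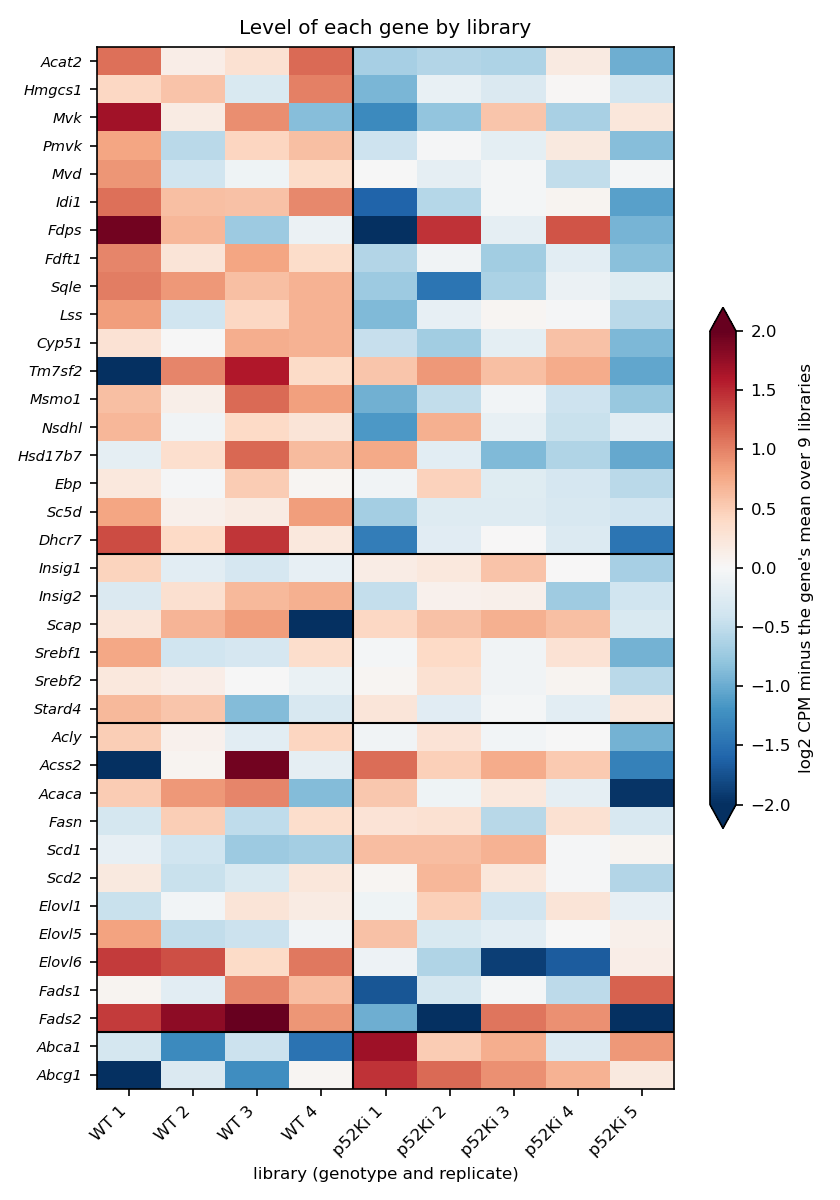
Level of each of the 37 genes in each library as log2 CPM minus the gene's mean over the 9 libraries, with lines between genotypes and between roles, and the colour scale ending at 2 on either side. Most sterol enzyme rows change from red in WT to blue in p52Ki. Rows of the control genes do not, apart from a partial change in Insig2. Fdps, Tm7sf2, Scap, Acss2 and Fads2 vary most within a genotype.

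Per kilobase of exon, which allows genes to be compared with each other, Acly was the most abundant member in WT at 84.4 CPM per kilobase, then Acat2 at 62.9 and Scd1 at 61.9. In p52Ki the order of these was Scd1 at 115, Acly at 66.9 and Acat2 at 27.1. Among the regulators Srebf2 stood at 37.8 in WT and Srebf1 at 16.3, above Scap at 5.46. Abca1 was lowest of the 37 in WT at 0.548, and Abcg1 stood at 4.05. Exon length is the union over all annotated transcripts, so genes with long unused exons are understated.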

How the data were processed

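RNA of spleen pre-GC B cells from 4 WT and 5 p52Ki libraries was isolated with PicoPure and made into SMART-Seq v2 and Nextera XT libraries, which carry no strand or molecular identifiers, per the labels' protocols. The submitters' processing notes name HISAT2 2.1.0, SAMtools 1.8, featureCounts of Subread 1.6.2 and GRCm38. For annotation release and count settings the sources used here give nothing. Tables of counts per gene and of log2 CPM were deposited. The deposited log2 values equal edgeR's TMM values with a prior count of 2 for the same 12849 genes (largest difference 4.97e-14). GC B cells are not analysed here.

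Counts were tested with edgeR 4.0.16 (R 4.3.3; filterByExpr, TMM, robust quasi-likelihood F test, Benjamini-Hochberg over 12849 genes, two-sided, called at adjusted p under 0.05). Positions and exon lengths are from GENCODE M21 on GRCm38. The members and lists were chosen with earlier results of these data known. Library values are given for called members, for the 8 others of smallest p, for Srebf1, Srebf2, Scap, Insig1, Insig2, Hmgcs1, Fasn, Scd2, Abca1 and Abcg1, and, chosen after its values were seen, for Fads2. From other lists the called genes are named. A rule to print promoters of called members with SRE letters found none. Alternatives were other size factors, filters, removal of antigen receptor genes, DESeq2 1.42.0, limma 3.58.1 (voom and trend), a GC and length correction (12830 of 12849 genes had values), a replicate block and leaving out each library. The test was checked on simulated counts of 12849 genes with 200 changed. Of its calls 3.28% were false.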

Additional observations from a re-analysis of the deposited data

Results flagged for a closer look

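In 2 of 82 genotype groups tested (41 genes in WT and in p52Ki) 1 library stood apart from the rest of its group by Dixon's gap criterion, a criterion that chance alone meets in about 1 of 20 groups. Acat2 was at 108 CPM in p52Ki replicate 4, against 48.9 to 63.7 CPM in the other p52Ki libraries. Tm7sf2 was at 3.48 CPM (16 counts) in p52Ki replicate 5, against 11.2 to 13.9 CPM in the other p52Ki libraries.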

How the results depend on the processing

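The comparison had 4 and 5 libraries and a biological coefficient of variation of 0.567. The check of the test recovered 12.9% of simulated 2-fold and 51.1% of 4-fold changes, with 200 genes changed. In the data 1096 genes were called, and the adjusted p depends on how many genes change. The share of such changes recovered in the data was therefore not tested. Calls of Elovl6, Dhcr7 and Sc5d lay near the threshold, and genes of few counts (Fdps, Tm7sf2, Acss2, Fads2) have wide errors. Genes called numbered 1096, 577 higher and 519 lower, but 1766 and 995 higher by DESeq2. Over fits without 1 library they ranged from 625 to 1108, 344 to 551 higher and 262 to 557 lower. Sterol enzymes called lower ranged from 2 to 6 over those fits (7 with all libraries). Without p52Ki replicate 3, total calls were lowest. Fatty acid enzymes called lower, 1 gene, were 0 with DESeq2 size factors and with no filter on low counts, and 0 to 1 without 1 library, while those called higher stayed at 1. Control and export genes called higher, 0 at first, were 1 with no filter, with a minimum of 10 CPM, with limma-voom and with limma-trend, 2 with DESeq2, and 0 to 1 without 1 library. The causes were not tested. No result changed direction past the threshold. With no filter, the median log2 fold change of all genes was 0.18 in place of 0.03. Branch medians moved by less than the SD between libraries in all 52 refits. That margin is wide, since leaving out 1 library shifts a genotype mean by only a fraction of its deviation. Those refits did not cover DESeq2, limma, the replicate block or the removal of antigen receptor genes. Over fits without 1 library, the medians of the fatty acid enzymes (-0.24 to 0.03) and of the sterol control genes (-0.19 to 0.09) crossed 0. Of 1041 refits of single genes, 920 kept their side of the threshold.

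Replicate numbers are shared by the genotypes, but same-numbered libraries did not deviate together (correlations of -0.042 to -0.009), and no library correlated best with its own number. With the replicate block, which leaves p52Ki replicate 5 without a partner, 129 genes were called, 97 higher and 32 lower, and 2395 stood at an unadjusted p under 0.05. Sterol enzymes called lower were then 0, and fatty acid enzymes called were 0 lower and 0 higher, with adjusted p of 0.0519 for Scd1 and 0.0578 for Sqle. Of the 17 cell cycle genes called lower, Mcm2 alone kept its call.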

Other observations

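Of 18 genes of fatty acid oxidation, the opposite of synthesis, 2 were called, both lower in p52Ki. Over all genes 8.53% were called, 4.04% lower. At an unadjusted p under 0.05 stood 5 of the 18, all lower. Cpt1a, the carnitine transferase that admits long chains to mitochondria and is the point of control of their oxidation (chromosome 19, 3322334 to 3385733), was at 188, 147, 191 and 153 CPM in WT and 44.9, 35.4, 61.2, 99.1 and 29.5 CPM in p52Ki. No p52Ki library reached a WT library, and Cpt1a fell 3.13-fold (-1.65 ± 0.31, SE, edgeR adjusted p = 0.00971). Hadha, a subunit of the mitochondrial trifunctional enzyme (chromosome 5, 30118304 to 30155162), was at 295, 253, 226 and 276 CPM in WT and 173, 158, 159.7, 153 and 159 CPM in p52Ki. The p52Ki libraries lay close together, all below WT, and Hadha fell 1.63-fold (-0.71 ± 0.13, edgeR adjusted p = 0.00803). Both calls were kept when any 1 library was left out. Of the 18 genes of the list 12 had a log2 fold change below 0, with a median of -0.32, and DESeq2 called 3 lower. Summed over the list, the level was 1205 to 1533 CPM in WT and 886 to 1139 CPM in p52Ki. These libraries are the ones with the lower cell cycle sums, whose part in this was not tested.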
